A study of Mus musculus with 238 samples.

Results

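The choroid plexus of control mice was compared with the rest of the brain of the same animals. The members were all control libraries labelled choroid plexus: 8 libraries, 1 from each of 8 mice, out of 238 libraries in the series. Each was set against the 90 control libraries of 12 other brain regions, here called the parenchyma. For every gene, the mean log2 CPM of the parenchymal regions of a mouse was subtracted from the log2 CPM of its plexus library, which gave 1 difference per mouse. CPM (counts scaled to library size) are the unit of all levels below, and a log2 difference of 1 is a 2-fold difference.

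Mice were of the strain C57BL/6JN and were all 19 months old. The 4 mice of the diet experiment were females fed ad libitum (AL 63, 66, 68 and 69), the controls of a dietary restriction. The 4 mice of the plasma experiment were males that had received PBS, a saline solution, by injection behind the eye (PBS 72, 76, 80 and 84), the controls of mice given plasma of young mice. Sex and experiment are the same split of the mice and cannot be told apart. The 12 regions were the caudate putamen, cerebellum, entorhinal cortex, anterior and posterior hippocampus, hypothalamus, medulla, motor cortex, olfactory bulb, pons, thalamus and visual cortex. Corpus callosum, SVZ (so named in the labels) and liver were left out of the contrast. Mouse AL 68 had no entorhinal library, PBS 72 had none of posterior hippocampus, pons and visual cortex, and PBS 76 had none of cerebellum and hypothalamus; the mean of each such mouse ran over the regions it had.

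The choroid plexus is a fringe of tissue in the ventricles of the brain that secretes the cerebrospinal fluid. Its cuboidal epithelium is joined by tight junctions, pumps ions and water into the ventricle, carries vitamins, hormones and metals from blood to fluid, and secretes proteins, among them transthyretin (Ttr), the carrier of thyroid hormone and retinol. The epithelium sits on a stroma with fenestrated capillaries, fibroblasts and macrophages and derives from the dorsal midline of the neural tube, where OTX2, LMX1A and MSX1 are active.

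Before any comparison, the label was checked against marker genes of the cell types that a dissected plexus could hold. All 8 markers of the plexus epithelium (Ttr, Folr1, Kl, Clic6, Kcnj13, Otx2, Aqp1 and Prlr) were present in the plexus libraries. Their summed level ran from 711 to 10950 CPM, with a median of 8798 CPM. The parenchyma had a median of 25.6 CPM and a range of 4.84 to 3816 CPM. Libraries AL 63 (1075 CPM) and AL 66 (711 CPM) stood apart from the other 6, which ran from 6501 to 10950 CPM. Both AL 63 and AL 66 lay below the highest parenchymal library and below the highest hippocampal library (1553 CPM). The summed level of 6 neuronal markers in the plexus libraries was 5170 to 6789 CPM (median 5893), inside the range of 2671 to 10520 CPM in the parenchyma (median 6201). Snap25, a protein of the synaptic release machinery, stood at 3226, 3587, 2605 and 2966 CPM in AL 63, 66, 68 and 69, and 2656, 2972, 3047 and 2745 CPM in PBS 72, 76, 80 and 84. The 4 oligodendrocyte markers summed to 5400 to 22150 CPM in the plexus libraries (median 12660), where the parenchyma had a median of 6557 CPM. The 4 astrocyte markers had medians of 3319 CPM in the plexus and 2912 CPM in the parenchyma. Ependymal markers summed to 25.1 to 51.6 CPM in the plexus libraries (median 45.9) and to a median of 15.65 CPM in the parenchyma. Stromal markers had medians of 68.9 and 36.9 CPM, and 63.8 CPM in the hippocampal libraries. Microglial markers had medians of 157.3 and 143.5 CPM. Medians were lower in the plexus for border macrophages (5.21 and 7.47 CPM), fenestrated endothelium (13.7 and 17.5 CPM) and blood (1.78 and 5.24 CPM). No marker of any of these cell types was at 0 in all plexus libraries. The libraries labelled choroid plexus therefore held the genes of plexus epithelium together with neuronal and glial transcripts at the level of brain tissue, and "plexus library" below means a library with that label. How the tissue was dissected is not given in the sources used here, and the part of the neural RNA in the results was not tested.

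**Figure D1:**
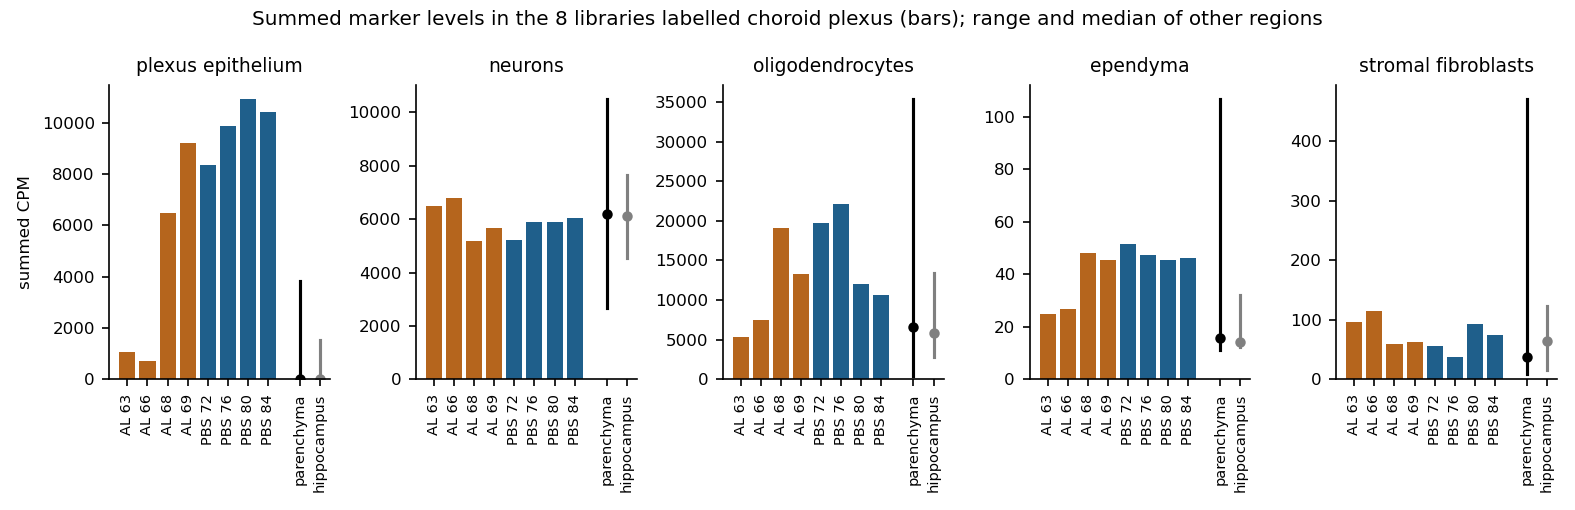
Summed level of marker genes (CPM, linear axes from 0) in each of the 8 plexus libraries (bars, brown AL, blue PBS), with the range (line) and median (point) of the 90 parenchymal libraries and of the hippocampal libraries among them. Epithelial markers were low in AL 63 and AL 66 (1075 and 711 CPM) and at 6501 CPM or more in the other 6, whereas neuronal markers were at 5170 CPM or more in every plexus library.

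Across 15063 genes, the mean log2 level of the plexus libraries was compared with that of the 12 regions, without corpus callosum and SVZ. It was most like that of the anterior hippocampus (Pearson's r 0.968, Spearman's rho 0.978) and the posterior hippocampus (r 0.967), followed by the entorhinal cortex (r 0.957). It was least like that of the cerebellum (r 0.883). These are correlations across genes, which are not independent, between mean levels of libraries that share mice. Because of this likeness, the genes and lists below were also tested against the hippocampus of the same mouse alone, where enough counts were left; the cohort difference and the values of whole libraries were not. This second baseline, and the omission of AL 63 and AL 66 together, were chosen after the data had been seen.

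Of the 15063 genes tested, 3838 (25.5%) were higher in the plexus libraries and 3220 (21.4%) were lower at an adjusted p under 0.05 (limma on the 8 differences within mice, two-sided, Benjamini-Hochberg adjustment). The median difference over all genes was at 0.00 on the log2 scale. When the difference had to exceed 2-fold, 369 genes (2.45%) were higher and 10 (0.0664%) were lower, so the large differences were nearly all in 1 direction. Among the regions of the contrast, the plexus library was the highest of its mouse in 8 of 8 mice for 39 genes (0.259%). Of these, 38 were among the 369. The plexus library was the lowest in 8 of 8 mice for 1 gene, Tti2 (0.00664%), a co-chaperone of kinases, with a log2 difference of -0.32 (SE 0.04). Corpus callosum and SVZ were not ranked, here or wherever the plexus is called highest or first in every mouse below. For 0 genes did every plexus library exceed every one of the 90 parenchymal libraries, and the count within mice was added after that 0 had been seen. Of the 369 genes, 192 had some parenchymal region with a mean above the plexus mean, most often the hypothalamus (63 genes), the entorhinal cortex (27) and the caudate putamen (21). A gene of few regions has a low mean log2 level over 12 regions, so a difference from that mean need not be a difference from each region. In tissue samples, fewer cells of a type and less RNA per cell cannot be told apart.

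Secreted and identity genes of the epithelium held the largest difference, that of Ttr. All 27 tested genes of that list were higher, 22 of them beyond 2-fold, and their median log2 difference was 4.09. Ttr stood at 911, 621, 5787 and 8120.4 CPM in AL 63, 66, 68 and 69, and 7489, 8824, 9834 and 9531 CPM in PBS 72, 76, 80 and 84. The level was lower in AL 63 and AL 66 than in the other 6 plexus libraries. Its mean was 3859.8 ± 3699 CPM (SD, n = 4) in AL mice and 8919 ± 1044 CPM (SD, n = 4) in PBS mice, and its log2 difference was 12.03 (SE 0.36), with an adjusted p of 2.31e-07 (limma). Without AL 63 and AL 66 the Ttr difference was 12.63. It was 13.02 from the hippocampus alone.

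Ttr was near 0 in most of the parenchyma but not in all of it. The median over libraries (plain CPM, not rescaled) was 0 in motor and visual cortex, 0.0482 in the anterior hippocampus, 0.298 in the thalamus and 4.43 in the medulla. There were 6 parenchymal libraries with at least 100 CPM: the caudate putamen of PBS 76 (3180 CPM) and AL 69 (482 CPM), the cerebellum of AL 68 (2010 CPM), the thalamus of PBS 72 (1400 CPM), the anterior hippocampus of PBS 76 (1340 CPM) and the medulla of PBS 84 (289 CPM). In the same library of the caudate putamen, Folr1 was at 38.5 CPM and Kl at 92.5 CPM, so more than 1 epithelial gene was raised there. Ttr in 6 of 8 plexus libraries exceeded all 90 parenchymal libraries, and AL 63 and AL 66 did not.

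**Figure D2:**
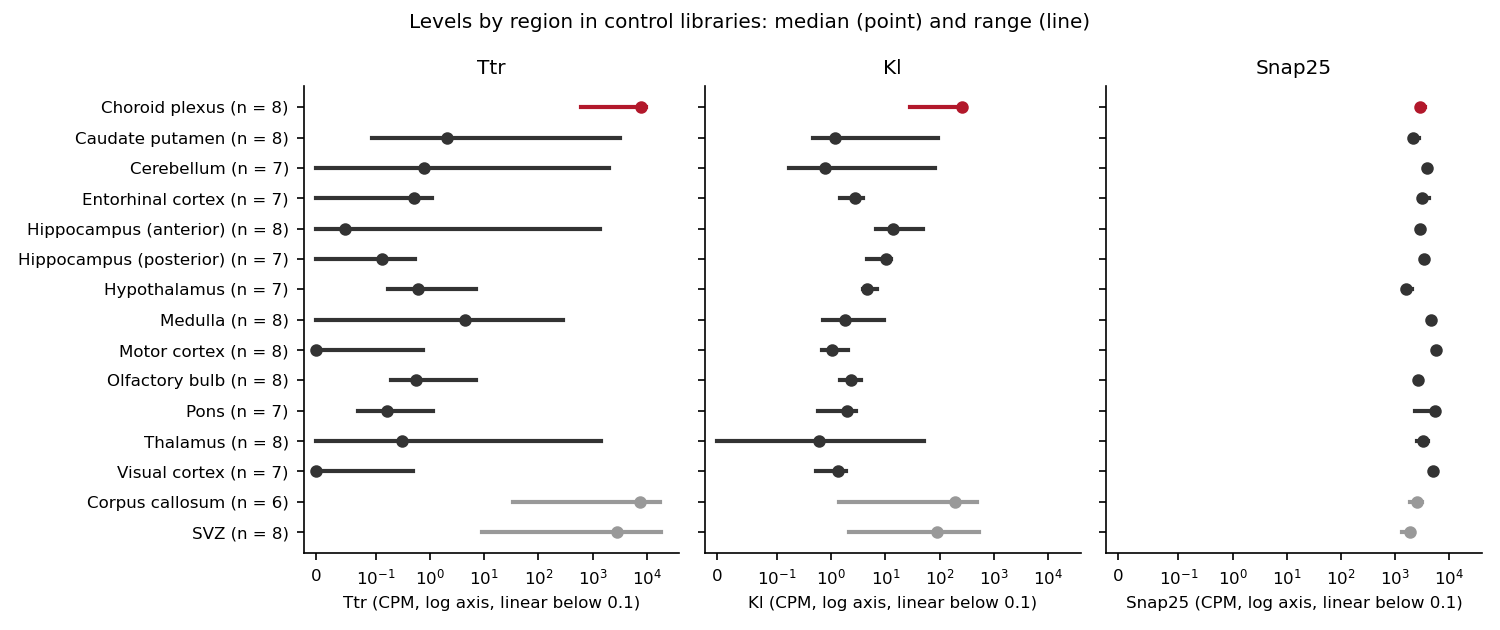
Level of Ttr, Kl and Snap25 (plain CPM, log axis that is linear below 0.1) in the control libraries of each region, with the median as a point and the lowest to highest library as a line; plexus in red, regions left out of the contrast in grey. Ttr and Kl have their highest median in the plexus (7790 and 255 CPM), but the corpus callosum has medians of 7590 and 191 CPM. Snap25 in the plexus (median 2930 CPM) lies among the other regions.

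Folr1, the folate receptor that carries folate across the epithelium, stood at 14.1, 6.93, 63.9 and 105 CPM in AL 63, 66, 68 and 69, and 77.1, 96.5, 104 and 88.8 CPM in PBS 72, 76, 80 and 84, and its parenchymal mean was 1.41 CPM. Its log2 difference was 6.82 (SE 0.32, adjusted p 9.39e-07, limma). Kl encodes klotho, the co-receptor of FGF23, which is shed into the fluid. It stood at 49.3, 28.8, 134 and 280.0 CPM in AL 63, 66, 68 and 69, and 246, 291, 305 and 269.6 CPM in PBS 72, 76, 80 and 84, with a difference of 5.77 (SE 0.26). Kl was also present in the hippocampal libraries: its mean was 17.6 CPM in the anterior hippocampus, and the difference from the hippocampus alone was 3.79. The median of the anterior hippocampus was 14 CPM (plain CPM). Its highest library was that of PBS 76, with 49.8 CPM of Kl and 1340 CPM of Ttr. Which cells of the hippocampus held Kl was not tested. Among the ranked regions, Folr1 and Kl both had the plexus library first in every mouse. The highest SVZ library, which was not ranked, had 207 CPM of Folr1 and 520 CPM of Kl (plain CPM). The highest plexus library had 105 and 299 CPM. In the corpus callosum, also not ranked, the medians were 78.6 CPM of Folr1 and 191 CPM of Kl, against 82.1 and 255 CPM in the plexus (plain CPM). In GRCm38.p6 the RefSeq annotation places Folr1 at chr7:101858331-101870788, Kl at chr5:150952607-150993817 and Kcne2, described below, at chr16:92292389-92298133.

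Other members of this group also had their lowest differences in AL 63 and AL 66. Enpp2 (autotaxin, a secreted lysophospholipase) reached a mean of 4063 CPM against 373 CPM, a difference of 3.39 (SE 0.33). Prlr, the prolactin receptor, differed by 4.49 (SE 0.26), and Clic6, an intracellular chloride channel protein, by 4.60 (SE 0.33). Otx2, the transcription factor that specifies and maintains the plexus, stood at 4.6, 2.43, 24.4 and 38.1 CPM in AL 63, 66, 68 and 69, and 28.8, 33.3, 40.9 and 28.8 CPM in PBS 72, 76, 80 and 84. AL 66 had the lowest level and PBS 80 the highest, and the difference was 4.39 (SE 0.34). The least raised members were Cab39l (1.17, SE 0.17) and Car14 (1.23, SE 0.23), and both were lower than the parenchyma in AL 66. Without AL 63 and AL 66, all 27 members exceeded 2-fold, where 2.94% of all genes did so. With the hippocampus as baseline, 26 of 26 tested members were higher, 20 of them beyond 2-fold, where 17.6% of all genes were higher and 1.16% were higher beyond 2-fold.

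**Figure D3:**
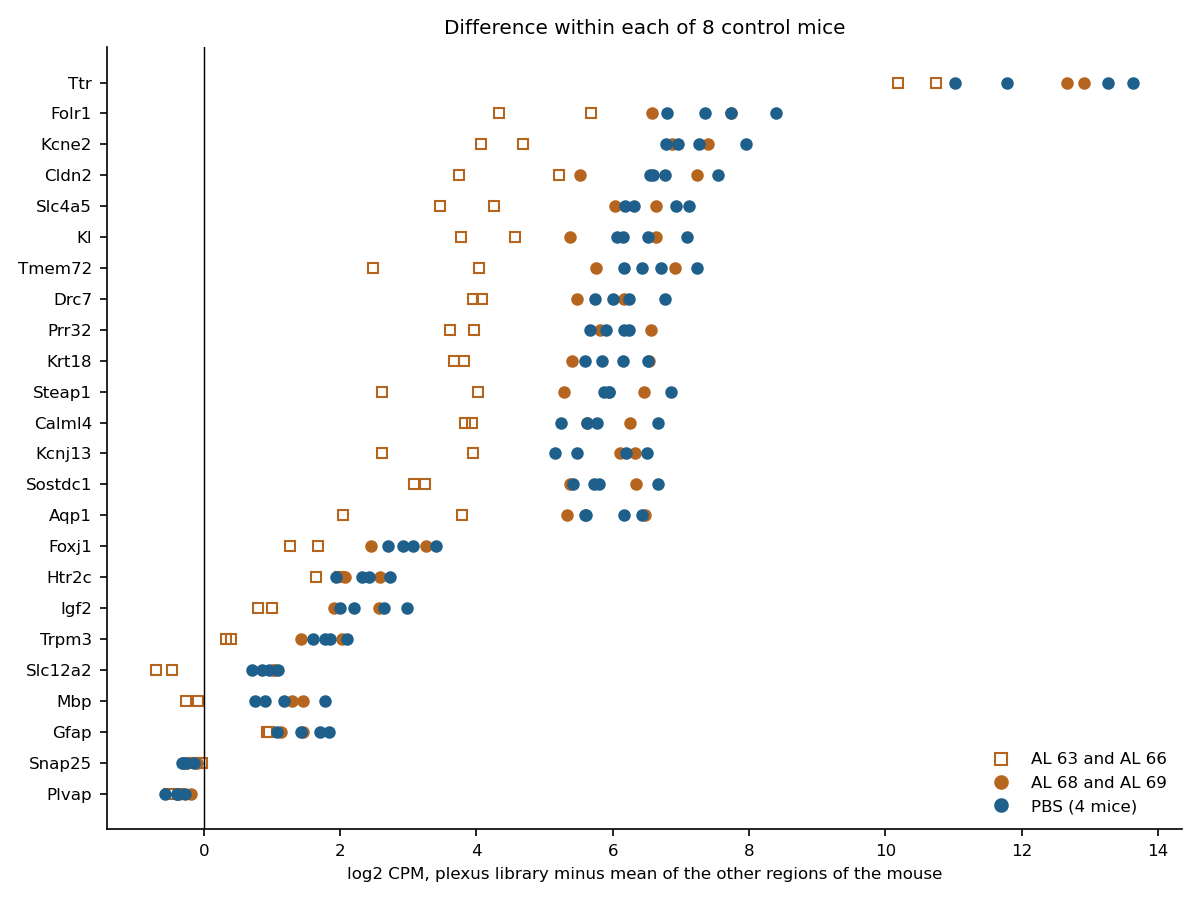
Log2 CPM of the plexus library minus the mean of the other regions, 1 symbol per mouse, for the 15 genes with the largest positive difference under the rule for named genes and 9 further genes. Open squares are AL 63 and AL 66, which are the lowest 2 for each of the 15 genes; Snap25 and Plvap are below 0 in all 8 mice.

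The proximal promoters of 3 of these genes are shown, each of them the highest in the plexus in every mouse. All 3 had their lowest plexus levels in AL 63 and AL 66, as the summed epithelial markers did. A shared control of these genes was not tested. Sequences are the 250 bases before the annotated start of transcription (RefSeq, build GRCm38.p6), written from 5′ to 3′ on the strand of the gene. Capitals mark TATAAA or its reverse complement TTTATA, and the 3 were picked from the 7 windows of such genes that hold it. The window of Cldn2 lies at chrX:139800558-139800807, plus strand, Slc4a5 at chr6:83237125-83237374, plus strand and Kcnj13 at chr1:87394730-87394979, minus strand. The start used for Slc4a5 is internal, inside the annotated span of the gene (chr6:83207580-83304945).
Cldn2: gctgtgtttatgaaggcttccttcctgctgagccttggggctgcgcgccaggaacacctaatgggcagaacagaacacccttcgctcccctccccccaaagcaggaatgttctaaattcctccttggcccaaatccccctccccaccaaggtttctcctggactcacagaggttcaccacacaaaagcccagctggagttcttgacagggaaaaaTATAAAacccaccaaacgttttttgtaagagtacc
Slc4a5: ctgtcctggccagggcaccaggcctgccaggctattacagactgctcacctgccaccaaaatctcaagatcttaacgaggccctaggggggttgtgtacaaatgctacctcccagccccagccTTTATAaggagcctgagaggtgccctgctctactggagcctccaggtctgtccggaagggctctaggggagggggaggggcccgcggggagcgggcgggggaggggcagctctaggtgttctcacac
Kcnj13: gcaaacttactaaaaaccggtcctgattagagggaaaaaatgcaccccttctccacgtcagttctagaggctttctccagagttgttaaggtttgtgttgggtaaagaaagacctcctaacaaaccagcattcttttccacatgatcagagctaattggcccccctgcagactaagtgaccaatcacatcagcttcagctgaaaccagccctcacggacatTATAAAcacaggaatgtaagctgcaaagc
Of the 39 genes that were highest in 8 of 8 mice, 33 had an entry in the promoter table, with 44 windows of 250 bases before to 50 bases after a start. TATAAA or TTTATA was in 15.9% of these windows and in 13.6% of all 32851 windows of the table. The core motif of OTX2 (GGATTA or TAATCC) was in 4 of 44 windows (9.09%) and in 7.06% of all windows. A forkhead motif (GTAAACA or TGTTTAC) was in 0 of 44 windows and in 3.65% of all. A match describes letters and not a bound site.

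Fluid secretion rests on ion and water transport, and 23 of 30 tested genes of that list were higher and 3 lower, with a median of 0.53. The 7 beyond 2-fold were Kcne2, Slc4a5, Kcnj13, Aqp1, Clic6, Car12 and Trpv4. Kcne2, the accessory subunit of potassium channels in the apical membrane, stood at 6.51, 4.31, 40.6 and 65.1 CPM in AL 63, 66, 68 and 69, and 55.3, 67.2, 73 and 53.2 CPM in PBS 72, 76, 80 and 84. Its difference was 6.50 (SE 0.35, adjusted p 1.39e-06, limma), and its parenchymal mean was 1.15 CPM. Slc4a5 (NBCe2), which moves sodium and bicarbonate across the apical membrane, stood at 8.9, 5.62, 41.1 and 72.7 CPM in AL 63, 66, 68 and 69, and 49.9, 59.6, 60.9 and 57.3 CPM in PBS 72, 76, 80 and 84, with a difference of 5.87 (SE 0.31). Kcnj13 (Kir7.1), the apical potassium channel, stood at 30.2, 14.8, 201 and 270.1 CPM in AL 63, 66, 68 and 69, and 184, 243, 241 and 161 CPM in PBS 72, 76, 80 and 84, with a difference of 5.29 (SE 0.37). All 3 were highest in the plexus in 8 of 8 mice, and AL 63 and AL 66 were the lowest plexus libraries for each. The corpus callosum, which was not ranked, had a Kcnj13 median of 185 CPM, and the plexus had 191 CPM (plain CPM).

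Aqp1, the water channel of the apical membrane, stood at 6.41, 1.87, 27.3 and 54.7 CPM in AL 63, 66, 68 and 69, and 42.4, 44.7, 44.4 and 47.4 CPM in PBS 72, 76, 80 and 84. Its difference was 5.18 (SE 0.39). The olfactory bulb had a median of 42.9 CPM (34.4 to 47.2, plain CPM) and the plexus a median of 42.6 CPM (1.84 to 55), so the levels of the plexus and the olfactory bulb overlapped. Those of the corpus callosum, which was left out of the contrast, overlapped too, with a median of 42.2 CPM (0 to 92.8). Trpv4, an osmosensitive cation channel, differed by 3.56 (SE 0.28). Car12, a membrane carbonic anhydrase, differed by 4.50 (SE 0.15), with 96.8 CPM in the caudate putamen and 126 CPM in the plexus.

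The cotransporter Slc12a2 (NKCC1) stood at 29.8, 31.3, 89.8 and 90.6 CPM in AL 63, 66, 68 and 69, and 96, 97.1, 80.4 and 107 CPM in PBS 72, 76, 80 and 84. It was below the parenchyma in AL 63 and AL 66 and above it in the other 6 mice, and its difference was 0.56 (SE 0.19, adjusted p 0.035, limma). Slc4a2 (the anion exchanger AE2) differed by 1.55 (SE 0.22). Of the beta subunits of the sodium pump, Atp1b1 was slightly higher (0.19) and Atp1b2, typical of astrocytes, was lower (-0.32), as was the potassium channel Kcna3 (-0.39). With the hippocampus as baseline no member of the list was called lower: 19 of 30 members were higher and 0 lower. Markers of oligodendrocytes, which also use Car2, Car14 and Slc12a2, were themselves low in AL 63 and AL 66 (5400 and 7532 CPM) and between 10600 and 22150 CPM in the other 6, and their part in these differences was not tested.

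Genes of tight junctions and epithelial polarity were higher in 15 of 22 and lower in 2, with 7 beyond 2-fold and a median of 0.65. Cldn2, the claudin that forms cation and water pores, stood at 10.3, 4.49, 28.5 and 67.4 CPM in AL 63, 66, 68 and 69, and 45.1, 60.8, 66.6 and 46.4 CPM in PBS 72, 76, 80 and 84. The difference was 6.14 (SE 0.30, adjusted p 1.1e-06, limma) over a parenchymal mean of 0.927 CPM, and the plexus was first in every mouse. The keratins of simple epithelia followed, Krt18 with 5.44 (SE 0.29) and Krt8 with 4.74 (SE 0.32). Tjp3, a scaffold of epithelial junctions, differed by 3.84 (SE 0.18). Cldn1 and Cldn3 differed by 3.02 and 3.01; Cldn3 was at 0 in AL 66. Cldn5, the claudin of brain endothelium, was lower (-0.31, SE 0.08), and so was Cldn12 (-0.45).

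Of 33 carriers between blood and fluid, 18 were higher and 7 lower, with a median of 0.35. Of all genes, 25.5% were higher and 21.4% lower, so the share of carriers that were lower was near that of all genes. Slc16a8 (MCT3), a lactate carrier of ocular and plexus epithelia, had 16.3 CPM against 0.391 CPM and a difference of 5.10 (SE 0.34). Steap1, a member of the STEAP family of metalloreductases, differed by 5.37 (SE 0.35). Slc29a4, a monoamine transporter, differed by 2.36 (SE 0.17) and Slc13a4, a sulfate transporter, by 2.31 (SE 0.21). The members that went lower included Abcb1a (-0.74, SE 0.06), the P-glycoprotein of brain endothelium, the meningeal GABA carrier Slc6a13 (-0.55) and the organic anion carrier Slc22a6 (-0.86), whose means were highest in the olfactory bulb or entorhinal cortex. Slc22a8, another organic anion carrier, was not called, with a difference of 0.01 and 25.9 CPM in the plexus against 26.9 CPM. Without AL 63 and AL 66, 11 of 35 tested members were higher beyond 2-fold (2.94% of all genes), in place of 6 of 33 (2.45%). Against the hippocampus alone 3 of 32 were (1.16% of all genes).

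Among 25 genes of copper, iron and vitamin handling, 12 were higher and 2 lower, and 3 exceeded 2-fold (Ttr, Folr1 and Stra6). Stra6, the receptor for retinol-binding protein, differed by 1.77 (SE 0.10) and was highest in the plexus in all mice. Rdh5, a retinol dehydrogenase, differed by 1.28. Slc31a1, the copper importer CTR1, differed by 1.54 (SE 0.19). Trf (transferrin, also made by oligodendrocytes) differed by 1.09, with negative differences in AL 63 and AL 66, the mice with the lowest oligodendrocyte markers. Crabp2, a carrier of retinoic acid found in meninges, was lower (-1.34, SE 0.19), and Slc40a1, the iron exporter, was lower by a smaller amount (-0.19). Without the same 2 mice, 7 of 25 exceeded 2-fold.

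Genes of motile cilia and ependyma were higher in 25 of 28, with none lower, 18 beyond 2-fold and a median of 1.97. Plexus epithelial cells carry motile cilia, and ependymal cells that line the ventricle adjoin the plexus. Foxj1, the master factor of motile cilia, stood at 5.27, 6.55, 15.6 and 22.5 CPM in AL 63, 66, 68 and 69, and 22.7, 25.2, 24.1 and 26.7 CPM in PBS 72, 76, 80 and 84, with a difference of 2.60 (SE 0.19, adjusted p 8.7e-06, limma). Drc7, of the dynein regulatory complex, stood at 8.14, 5.43, 32.7 and 56.1 CPM in AL 63, 66, 68 and 69, and 46.1, 51.1, 57.3 and 45.5 CPM in PBS 72, 76, 80 and 84, and its difference of 5.55 (SE 0.24) was the largest in the list. Drc7 was highest in the plexus in 8 of 8 mice, whereas Foxj1 was so in 3. The ependymal genes Tmem212 (4.14, SE 0.17) and Ccdc153 (4.01, SE 0.16) had higher means in the hypothalamus (12.3 and 13.1 CPM) than in the plexus (8.13 and 9.04 CPM), and the hypothalamus was the highest parenchymal region for most members. The levels of both ependymal genes were lowest in AL 63 and AL 66 among the plexus libraries, but their differences within mice in AL 66 lay among those of the other mice. Spag6 and Spag6l are close copies, so reads could be split between them.

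Secreted growth factors and morphogens were higher in 16 of 29 and lower in 4, with 7 beyond 2-fold. Sostdc1, a secreted antagonist of BMP and Wnt signals, stood at 13.1, 9.92, 71.4 and 112 CPM in AL 63, 66, 68 and 69, and 85.6, 111, 123 and 78 CPM in PBS 72, 76, 80 and 84, with a difference of 5.21 (SE 0.34). Sema3b, a semaphorin, differed by 2.63 (SE 0.22). Both were highest in the plexus in every mouse. Igf2, the insulin-like growth factor that the plexus and meninges secrete, stood at 18.4, 21.3, 45.9 and 93.7 CPM in AL 63, 66, 68 and 69, and 69, 69.8, 89.6 and 64.5 CPM in PBS 72, 76, 80 and 84, with a difference of 2.01 (SE 0.19). Its binding protein Igfbp2 differed by 2.21 (SE 0.21), and both exceeded the mean of the olfactory bulb, the next highest region (28.8 and 124 CPM). Tgfb2 differed by 2.22 (SE 0.09), but by 0.85 against the hippocampus alone. Bmp5 (-0.82), Igfbp5 (-0.47), Shh (-0.41) and Igf1 (-0.34) were lower, and Shh turned to 0.47 against the hippocampus. Against that baseline 3 of 26 members exceeded 2-fold.

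Of 31 receptor genes, 19 were higher and 1 lower, and 4 exceeded 2-fold: Kl, Prlr, Crhr2 and Htr2c. Htr2c, the serotonin receptor that is dense on the plexus, stood at 75.7, 55.1, 80.8 and 95.9 CPM in AL 63, 66, 68 and 69, and 102, 82.1, 102 and 144 CPM in PBS 72, 76, 80 and 84, with a difference of 2.22 (SE 0.10, adjusted p 9.39e-07, limma). AL 66 and AL 63 were again the lowest, but close to AL 68, and the difference without these 2 mice was 2.35. Crhr2, a receptor of urocortins, differed by 2.24 (SE 0.23) at a mean of 7.35 CPM. Nr3c1, the glucocorticoid receptor, was lower (-0.32, SE 0.04).

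Trpm3, a steroid-gated cation channel whose intron holds a microRNA of the plexus, stood at 84.7, 76.2, 183 and 284 CPM in AL 63, 66, 68 and 69, and 230.5, 237, 281 and 251 CPM in PBS 72, 76, 80 and 84. Its difference was 1.44 (SE 0.17), which was not called beyond 2-fold (adjusted p 0.408, limma). Its mean in the cerebellum was 201 CPM, next to 203 CPM in the plexus.

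Most vessel genes were lower against the 12 regions. Of 12 genes of fenestrated and general endothelium, 8 were lower and 2 higher (median -0.37), and of 12 genes of the blood-brain barrier endothelium, 7 were lower and 1 higher (median -0.20). Plvap forms the diaphragms of fenestrated capillaries. It stood at 14.1, 11.8, 12 and 14.1 CPM in AL 63, 66, 68 and 69, and 13.5, 13.6, 11.5 and 12.3 CPM in PBS 72, 76, 80 and 84, and its difference was -0.38 (SE 0.06), below 0 in 8 of 8 mice. Flt1 and Cdh5, a receptor of VEGF and the cadherin of endothelial junctions, differed by -0.58 and -0.63, and Fn1 (fibronectin) by -1.08. The exceptions were Nrp1 (1.39, SE 0.12), which neurons also express and which stood at -0.14 against the hippocampus alone, Esm1 (0.64, at 0.767 CPM) and Slco1c1 (1.24), a carrier of thyroid hormone that both the barrier endothelium and the plexus epithelium use. Of 11 mural genes, 8 were lower and 2 higher (median -0.43), with Tagln at -0.59 and Abcc9 at -0.53 the farthest below 0 and Cspg4 (0.34) and Rgs5 (0.31) the 2 higher. Against the hippocampus, 6 of 11 endothelial genes and 7 of 11 mural genes were lower, but barrier genes were 3 higher and 4 lower of 12. Of all genes, 17.6% were higher and 16.1% lower against that baseline. In the AL females alone 1 endothelial and 1 mural gene were higher and 0 lower, where 9.16% of all genes were higher and 4.56% lower, with medians of -0.27 and -0.16.

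Of 24 stromal and meningeal fibroblast genes, 10 were higher and 5 lower, beside 25.5% and 21.4% of all genes. The share that was lower was thus near that of all genes. Col8a1, a short-chain collagen, differed by 3.42 (SE 0.32) and followed the order of the epithelial genes, with 8.61 CPM in AL 66 at the low end. Col6a1 differed by 1.70 (SE 0.14) but had its largest differences in AL 63 and AL 66, the reverse of the epithelial genes, and its mean in the olfactory bulb was 125 CPM. Dcn (decorin) differed by 1.26. The fibrillar collagens Col1a1 (-0.62, SE 0.12) and Col1a2 (-0.72, SE 0.13) and the meningeal prostaglandin synthase Ptgds (-0.52, SE 0.11) were lower. Against the hippocampus alone, Col1a2 and Ptgds stood at 0.05 and 0.10 and were not called.

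Immune genes differed by list. None of 10 genes of border macrophages was called by limma (2 had an unadjusted p under 0.05, and edgeR with the mouse as block called 1 and DESeq2 2); Mrc1, the mannose receptor, was at 3.04 CPM in the plexus and 4.16 CPM in the parenchyma, and Cd163, Pf4 and F13a1 had differences of -0.40, -0.46 and -0.40. Of 11 genes of MHC class II presentation, 6 were higher and none lower, at low levels: H2-Aa by 1.04 (SE 0.20) and Cd74 by 0.74 (SE 0.20), with 7.95 and 19.6 CPM in the plexus. H2-Aa was low in AL 63 and AL 66 (2.68 CPM in AL 63), like the epithelial genes. Of the 11, 0 were called in the AL females alone, where 9.16% of all genes were higher and 4.56% lower. In treated mice 1 was higher and 1 lower, beside 16% and 13.4% of all genes. Against the hippocampus alone 6 were higher and 0 lower (17.6% and 16.1% of all genes). The PBS males alone had 7 higher and 0 lower (23.2% and 16.7% of all genes). Of 18 complement genes, 8 were higher and 2 lower. C3, the central component, differed by 2.48 (SE 0.15) at a mean of 11.6 CPM, and C4b by 1.31 (SE 0.09). Without AL 63 and AL 66, 12 complement genes were higher and 1 lower, where 25.7% of all genes were higher and 18.1% lower.

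Genes of MHC class I and the interferon response were lower in 12 of 31 and higher in 3 (median -0.22). Ifi44 (-0.93), Ifit1 (-0.67), Isg15 (-0.63) and Oasl2 (-0.52) were the farthest below 0. Against the hippocampus alone, 5 of 30 (16.7%) were higher and 1 (3.33%) was lower, beside 17.6% and 16.1% of all genes. Ifi27 (1.18, SE 0.12) and Bst2 (1.01, SE 0.17) were higher, and the difference was also positive against the hippocampus (1.31 and 1.26). The genes of the H2-Q and H2-T families are close copies, and their separate values are uncertain.

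Blood genes were lower in 5 of 6 (median -1.17) against the 12 regions. Against the hippocampus 0 of 3 tested were called (median -0.04). In the AL females alone 1 of 6 was lower, where 4.56% of all genes were lower. Hbb-bs stood at 0.479, 1.5, 1.76 and 0.331 CPM in AL 63, 66, 68 and 69, and 0.333, 0, 0.342 and 5.72 CPM in PBS 72, 76, 80 and 84, near the floor of the counts, and its difference was -1.38 (SE 0.28). The olfactory bulb had the highest mean (23.3 CPM), and Hba-a1 stood at 0.13 against the hippocampus alone. The globin genes Hba-a1 and Hba-a2 are near-identical and are reported as uncertain. Of 22 lymphocyte and granulocyte genes, 7 passed the filter on low counts. Of these 7, 1 was higher and 3 lower, beside 25.5% and 21.4% of all genes. Kit differed by 1.57, S100a8 by -2.16 and S100a9 by -1.43, and Kit is also expressed by neurons. For 2 of the 7 no plexus library had more than 3 counts, so the size of their differences depends on the prior count. With those set to that floor and their differences held at 0 or below, the list median moved from -0.33 to 0.

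Neuronal genes showed how the baseline matters. Against the 12 regions, 12 of 18 neuronal genes were higher and 3 lower, with 3 beyond 2-fold: Nrgn, Slc17a7 and Camk2a, all of forebrain excitatory neurons. Nrgn (neurogranin) differed by 2.24 (SE 0.16) although its mean level was 667 CPM in the plexus and 638 CPM in the parenchyma, and its mean in the cerebellum was 2.03 CPM. Against the hippocampus alone, 3 of 18 were higher and 3 lower (16.7% each), near the 17.6% and 16.1% of all genes. Nrgn then differed by -0.56 (adjusted p 0.044, limma), Camk2a by -0.37 (adjusted p 0.18) and Slc17a7 by 0.10 (adjusted p 0.727). Snap25 differed by -0.19 (SE 0.04) against the 12 regions and by -0.07 against the hippocampus. Reln, made by interneurons and cerebellar granule cells, was lower in both (-1.11 and -0.73), and Gad2, of inhibitory neurons, higher in both (0.60 and 0.79).

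**Figure D4:**
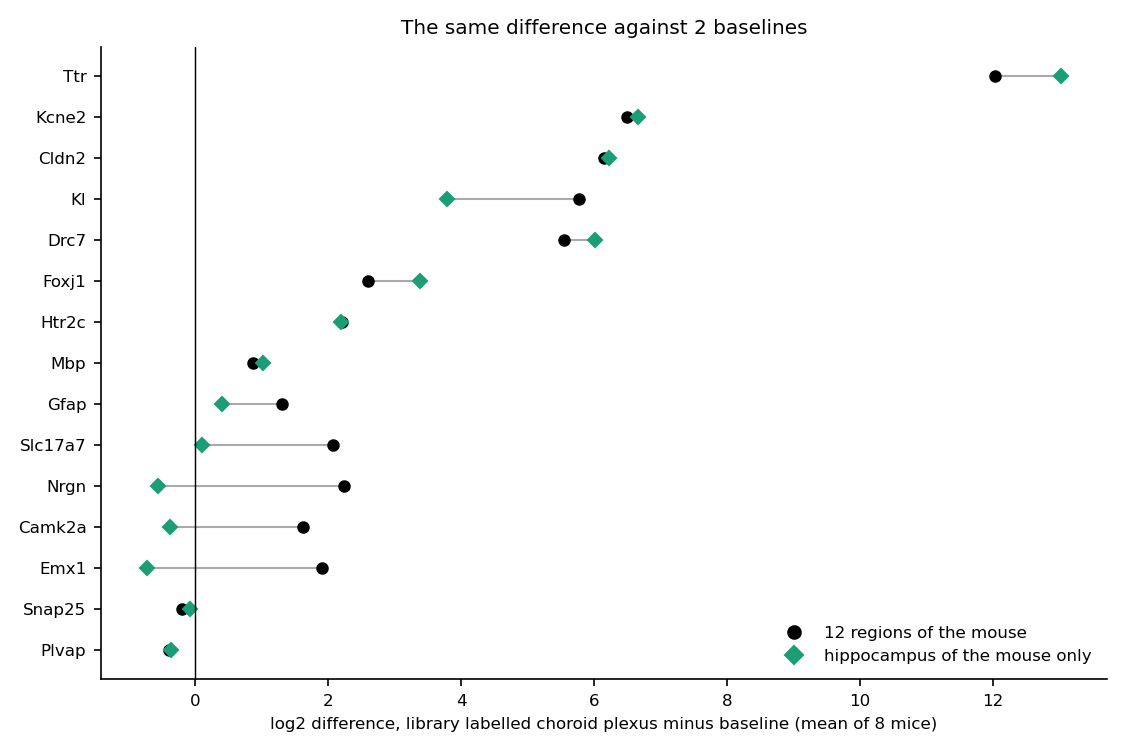
Mean log2 difference over 8 mice of 15 genes, once from the mean of the 12 regions of each mouse (black circles) and once from its hippocampus only (green diamonds). Ttr, Kcne2, Cldn2, Kl and Drc7 lie at 3.79 or more against both baselines, whereas Nrgn, Camk2a and Emx1 change from above 1 to below 0.

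Oligodendrocyte genes were higher in 10 of 10 (median 0.82). Mbp, a myelin protein, stood at 2784, 4118, 10532 and 7153 CPM in AL 63, 66, 68 and 69, and 10807, 12897, 6599 and 5650.3 CPM in PBS 72, 76, 80 and 84, and its difference of 0.88 (SE 0.20) was negative in AL 63 and AL 66 and positive in the other 6 mice. Against the hippocampus alone 8 of 10 were higher, beside 17.6% of all genes, with a median of 0.88. Without AL 63 and AL 66, 10 of 10 were higher (25.7% of all genes), and in the PBS males alone 10 of 10 (23.2%). With only the 6 regions that every mouse has, 3 of 10 were called higher, near the 27.1% of all genes in that fit. In the AL females alone 0 of 10 were called, and in treated mice 0 of 10 (16% of all genes), with medians of 0.59 and 0.43. Of 9 precursor genes, 7 were higher. Of 12 astrocyte genes, 4 were higher and 3 lower, beside 25.5% and 21.4% of all genes. Gfap was higher by 1.31 (SE 0.09), and the gap junction gene Gjb6 stood at -0.45. Of 12 microglial genes, 5 were slightly higher, with a median of 0.14. Against the hippocampus 0 were higher and 1 lower, beside 17.6% and 16.1% of all genes.

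Of 14 tested Hox genes, which mark position in the hindbrain and spinal cord, limma called 12 lower, and these 12 had at most 3 counts in every plexus library. With the mouse as block, edgeR called 2 of the 14 and DESeq2 1. Against the hippocampus no Hox gene had enough counts to be tested, so low Hox counts were shared with that region. In the medulla, Hoxd3 had a mean of 21.9 CPM, Hoxc4 16.3 CPM and Hoxb2 11.6 CPM. Among 19 forebrain and midline factors, 9 were higher and 4 lower, beside 25.5% and 21.4% of all genes. Lmx1a, a factor of the roof plate, differed by 3.81 (SE 0.34) and Msx1 by 3.13 (SE 0.26). Six3 differed by 3.92 (SE 0.35), but it is a gene of the caudate putamen (81 CPM there). Emx1, of the dorsal telencephalon, differed by 1.91, and by -0.72 against the hippocampus; it was named after its values had been seen. Zic2 and Meis1 were lower (-0.39 and -0.58) but stood at 0.65 and 0.92 against the hippocampus. The 10 genes lower beyond 2-fold were mostly genes of 1 region. Cbln1, the cerebellin of granule cells, had 0.731 CPM in the plexus and 158 CPM in the cerebellum. Mab21l2 and Nxph4 were highest in the medulla (66.4 and 59.9 CPM), and Lgr6 in the olfactory bulb (124 CPM).

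Against the hippocampus alone, 18 genes (0.127%) were lower beyond 2-fold, out of 16.1% lower at all. Among them were Lct (lactase), Grm2 (a metabotropic glutamate receptor), Adcy1 (an adenylyl cyclase) and Epha7 (an ephrin receptor), which were picked after their values had been seen. Lct had 38.7 CPM in the hippocampus and 1.32 CPM in the plexus, Grm2 85.7 and 14.5 CPM, Adcy1 262 and 62.8 CPM, and Epha7 327 and 70 CPM.

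In energy metabolism, genes of glycolysis were more often higher and those of the respiratory chain were seldom called. Of 71 nuclear genes of the respiratory chain, 2 were higher and 7 lower, with a median of -0.04, shares below those of all genes. Without AL 63 and AL 66 the counts were 10 and 6, again below those of all genes in that fit. In the PBS males alone they were 2 and 14, or 2.82% and 19.7%, beside 23.2% and 16.7% of all genes. None of 13 mitochondrially encoded genes was called by limma (median 0.06), 1 had an unadjusted p under 0.05, and with the mouse as block edgeR called 1 and DESeq2 1. Of 19 genes of glycolysis and lactate, 12 were higher and 2 lower, at a median of 0.20, with Hk2 (0.74) and Pfkl (0.72) the largest. Cox8b, a muscle-type subunit of cytochrome c oxidase outside these lists, was among the 39 genes and differed by 5.17 (SE 0.29). Clock genes were lower in 13 of 18 and higher in 1, with Hlf at -0.74 (SE 0.07) and Bhlhe41 at -0.63 (SE 0.08); against the hippocampus alone 10 were lower and 0 higher. The hour of sampling is not given in the sources used here.

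**Figure D5:**
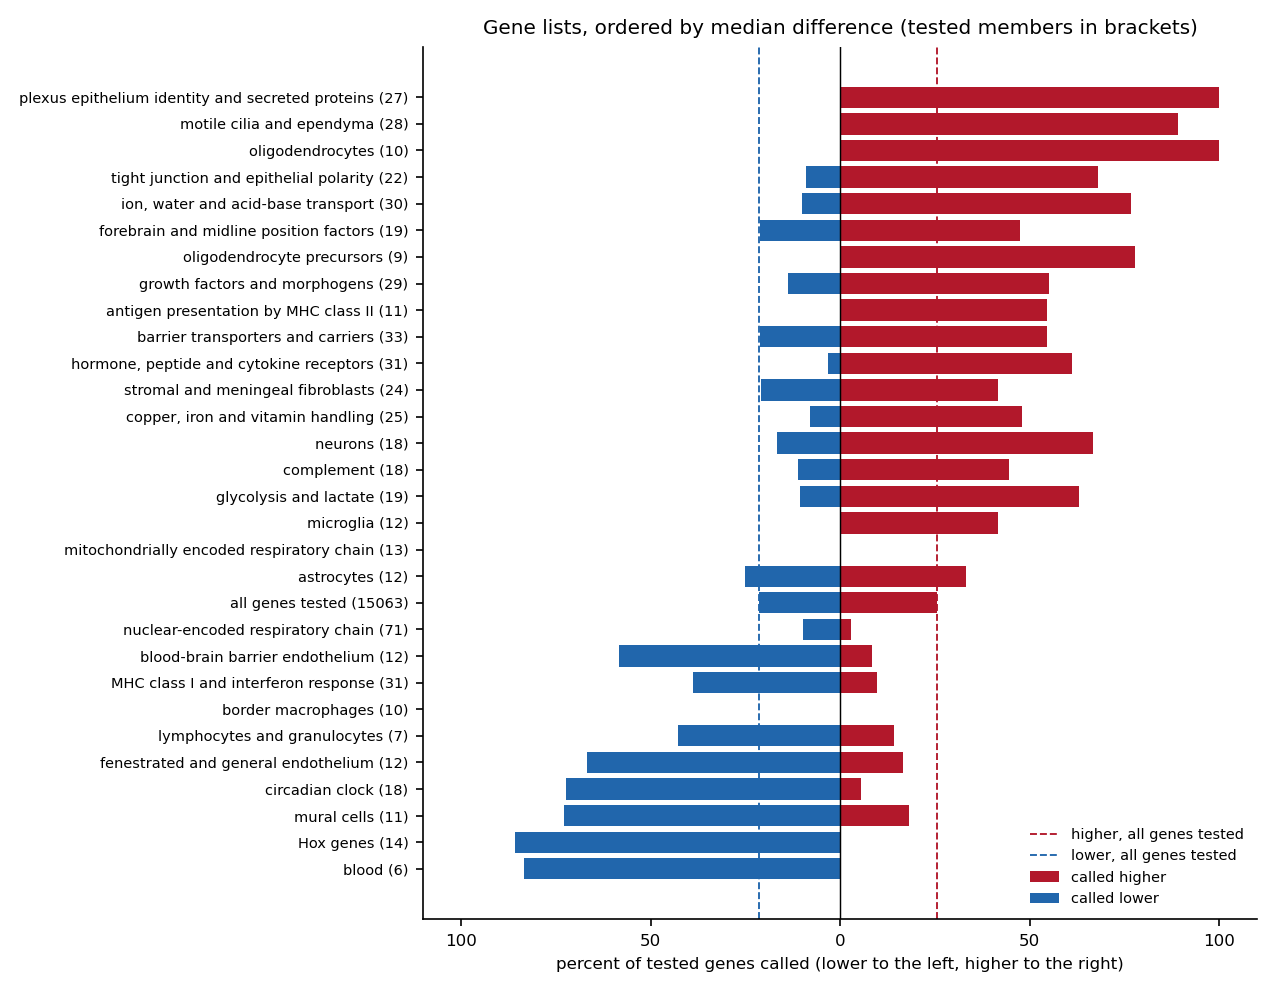
Share of the tested members of each gene list that were called higher (red, right) or lower (blue, left) in the plexus libraries, ordered by median difference, with the shares over all 15063 genes as dashed lines (25.5% and 21.4%). The epithelial, ciliary and oligodendrocyte lists lie to the right, and Hox, blood, mural, clock and endothelial lists to the left.

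No gene was called for a difference of the contrast between the cohorts: 0 genes (0%) passed for PBS males minus AL females (limma), while 777 stood under 0.05 before adjustment and none came below an adjusted p of 0.0699. With the 6 regions that all mice have, Xist was the 1 gene called, with an adjusted p of 0.0309. Xist, the RNA of the inactive X chromosome, stood at 195, 197, 150.2 and 146 CPM in AL 63, 66, 68 and 69, and 1.6, 1.55, 2.19 and 1.4 CPM in PBS 72, 76, 80 and 84, which matches the labelled sexes. Its antisense partner Tsix cannot be told apart from it in counts without strand. The other genes with the smallest p were Hba-a1 (-1.74), Erg, an endothelial factor (-1.07), and Col17a1, an epithelial collagen (2.23). Epithelial genes had positive cohort differences, 0.80 for Ttr (SE 0.73), 1.49 for Folr1 and 1.49 for Kcne2, which were not called (adjusted p 0.844, 0.819 and 0.819). Both low libraries, AL 63 and AL 66, are in the AL group, and leaving them out also left 0 genes called.

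Of the values of whole libraries, the share of counts in Ttr was 0.631% ± 0.363 (SD, n = 8) in the plexus and 0.0108% in the parenchyma of the same mice. It was higher in 8 of 8 mice, with an exact sign-flip permutation p of 0.00781, the smallest that 8 mice allow, and 0.0624 after adjustment over 8 tests. The number of genes with at least 10 CPM was 10449.5 in the plexus and 10305 in the parenchyma, higher in 7 of 8 mice (exact p 0.0156, adjusted 0.0624). The 10 most abundant genes took 5.77% and 4.92% of counts (exact p 0.0312, adjusted 0.0832), and mitochondrially encoded genes 2.48% and 2.38% (exact p 0.375). None passed after adjustment, but with 8 mice and 8 tests 1 value at the smallest possible p could not pass by itself. Depth was similar, with totals of 5.45 to 15.2 M counts in the plexus libraries (median 10.6 M) and 1.96 to 32.4 M in the parenchyma (median 8.8 M).

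The same contrast in the 8 treated mice (dietary restriction or plasma) gave 199 genes higher beyond 2-fold (1.33%). Ttr differed by 11.61 and Folr1 by 6.30 there. Ttr ran from 127 to 14600 CPM in their plexus libraries (median 5060, plain CPM), and Snap25 from 1960 to 3600 CPM, so the mixture of epithelial and neuronal genes was also present in the libraries of treated mice.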

How the data were processed

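RNA was extracted from homogenised tissue, turned into cDNA by Smart-Seq2 and sequenced without strand, per the labels' protocols. The authors deposited raw counts per gene for 238 libraries. The submitters' processing notes name Trim Galore 0.3.7, STAR 2.5.3a, DESeq2 and GRCm38; the counter, annotation and filters are not given in the sources used here.

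From the counts, log2 CPM were computed with edgeR 4.0.16 (TMM scaling, prior count 2) for genes that passed filterByExpr (minimum count 10, minimum total 15). Levels are TMM-scaled CPM unless called plain CPM. The test was limma 3.58.1 with a trend on mean level (R 4.3.3), on 1 difference per mouse with the cohort as covariate; the trend first ran on the mean difference, which was corrected after the first counts had been seen. "Beyond 2-fold" is limma's treat test at a log2 difference of 1, and all adjusted p are Benjamini-Hochberg. limma was used in place of a count model because the comparison is of a difference within mice; edgeR and DESeq2 1.42.0 were run as alternatives. The script was tested on simulated data. Single values were tested by exact sign-flip permutation over mice, where 8 mice allow no p below 0.00781.

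Samples pair because they come from the same mouse, per the labels. The residuals of the plexus and parenchyma of a mouse correlated with a mean r of 0.211 (0.0526 to 0.493, 8 mice, 5 over 0.1). No 2 plexus libraries of a cohort agreed within sampling noise (chi-square per degree of freedom 6.54 to 42.5 over 12 pairs). Totals of 5.45 to 15.2 M counts per plexus library set the precision. The members and gene lists were chosen with earlier results of these data known. Named genes were the 15 largest positive differences beyond 2-fold with 1 sign in 8 mice and a mean of at least 10 CPM, the 4 negative ones that met the same rule, the 4 largest of each list with members against its majority, a fixed set of plexus and cell type genes, and the 5 with the smallest p between cohorts. Other named members were picked after their values had been seen. Alternatives were other scalings, filters, prior counts, baselines and sets of mice. Treated libraries and liver entered no main test. Some items are not reported here.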

Additional observations from a re-analysis of the deposited data

Results flagged for a closer look

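The difference of Steap1 in PBS mouse 80 was 6.86 on the log2 scale, apart from the other PBS mice at 5.87 to 5.95. Of 78 groups of 4 values checked for such a gap, 1 had it, and chance would give about 3.9. The groups were differences of named genes and, for a few, values of whole plexus libraries.

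Ttr was also abundant in the 2 regions left out of the contrast. In the control libraries of the corpus callosum it ran from 34.2 to 17400 CPM (median 7590, n = 6, plain CPM), and in those of the SVZ from 9.28 to 18400 CPM (median 2770, n = 8). The highest library of each of these regions exceeded the highest plexus library, which had 9620 CPM.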

How the results depend on the processing

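The 7058 called genes, the 379 beyond 2-fold and the 0 cohort calls stayed within 1.5 times under other scalings, no filter and a prior count of 0.5. The balance of directions among all called genes did depend on scaling. With library totals 3506 were higher and 3699 lower, in place of 3838 and 3220, while 356 and 10 were so beyond 2-fold. The counts moved in the AL females only (2069 genes, 134 beyond 2-fold), in treated mice (4380 and 201), against the hippocampus (182 beyond 2-fold) and with the 6 shared regions (1 cohort call). Leaving out 1 mouse gave 5680 to 6718 genes, 298 to 392 beyond 2-fold and 0 cohort calls. Without AL 63 and AL 66 there were 6641 and 452. With the mouse as a replicate block, edgeR called 7870 genes and DESeq2 7986; with no replicate block, edgeR called 7518 and limma 6759 with 383 beyond 2-fold, so the pairing moved no count by over 1.5 times.

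For 164 named genes, 3554 of 3918 values kept direction and side of the threshold, 323 lost the call, 23 gained it and 18 turned. Against the hippocampus these were Xist -0.041, Hba-a1 0.13, Shh 0.47, Nrp1 -0.14, Ptgds 0.10, Col1a2 0.045, Nrgn -0.56, Camk2a -0.37, Siglech -0.021, Ldhb 0.076, Zic2 0.65 and Meis1 0.92. In AL females they were Xist -0.27 and Tsix -0.26, with the edgeR block Xist -0.017, in treated mice Ifit1 0.028, and with 6 regions mt-Nd4 -0.025 and Npas2 -0.013. The share of mitochondrial counts also turned with 6 regions (-0.0914 percentage points). The cause was not tested. Genes with few counts in the plexus, the Hox genes among them, have differences that depend on the prior count.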
